A study of Mus musculus with 12 samples.

Results

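H19, Igf2 and Ins2 are neighbouring genes at the distal end of mouse chromosome 7, and the binding map of CTCF around them in adult liver is described here. The region ran from 100 kb before H19 to 100 kb beyond Ins2, a window of 304 kb between 142475530 and 142779726 (mm10), and held 22 CTCF sites of 76061 in the genome. A site is a stretch of overlapping peaks (1 bp or more) pooled over 6 lists of called peaks, and all sites in the window were taken whatever their values. The peaks came from chromatin immunoprecipitation and sequencing (ChIP-seq) with a Diagenode CTCF antibody on whole livers of wild-type (WT) male C57BL6/Ncrl mice, 3 to 4 months old and kept on normal chow. Starved mice had gone without food for 24 h and their livers were taken at ZT13 (zeitgeber time, hours after lights on). Fed mice ate ad libitum and their livers were taken at ZT16, so feeding and collection time cannot be told apart. Each state had 3 ChIP libraries with a peak list each, and the 3 starved and 3 fed input libraries were not analysed here. Whether each library is a mouse of its own is not in the labels, and p-values therefore reflect library-to-library spread that may be technical.

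H19 is a maternally expressed noncoding RNA, Igf2 a paternally expressed fetal growth factor, and Ins2 an insulin gene used by pancreatic beta cells. Between H19 and Igf2 lies an imprinting control region that is methylated on the paternal chromosome. On the unmethylated maternal chromosome CTCF binds it and acts as an insulator, keeping enhancers beyond H19 from reaching Igf2. Both RNAs are abundant in fetal liver and fall to low levels after birth. The peaks of inbred mice do not separate the parental chromosomes, and a whole liver mixes hepatocytes with other cells. Fewer bound cells and less binding per cell cannot be told apart in them.

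Starved livers had fewer sites in the region than fed livers. Starved libraries 1, 2 and 3 had 12, 9 and 11 of the 22 sites, and fed libraries 1, 2 and 3 had 18, 16 and 21. The means were 10.7 ± 1.53 sites in starved and 18.3 ± 2.52 in fed livers (SD, n = 3 each), a starved minus fed difference of -7.67. The groups did not overlap, and p was 0.1 by exact permutation of the 20 possible labellings (two-sided), which is as small as 3 libraries against 3 can give. The whole lists were shorter after starvation too, with 23926 to 30752 peaks in starved and 49030 to 74950 in fed libraries, and the sequencing depth behind them is unknown. Relative to its list a starved library had no fewer peaks here, with 4.55, 4.60 and 4.35 of every 10000 peaks lying in the region in starved libraries, against 3.56, 3.47 and 2.94 in fed libraries (exact permutation p = 0.1). When each list was cut to its 23926 best-scored peaks, the length of the shortest list, starved 1, 2 and 3 had 9, 9 and 10 sites, and fed 1, 2 and 3 had 12, 11 and 11. The difference was then -2 sites, from means of 9.33 ± 0.577 in starved and 11.3 ± 0.577 in fed livers (SD, n = 3 each), and the groups did not overlap (exact permutation p = 0.1). In these lists the region held 4.60 ± 0.418 of every 10000 peaks in starved and 4.88 ± 0.483 in fed livers (SD, n = 3 each; exact permutation p = 0.7). Counted as peaks, starved 1, 2 and 3 had 10, 11 and 12 there, and fed 1, 2 and 3 had 13, 11 and 11. A site with more than 1 peak counts once, so the difference in sites rests in part on starved peaks that share a site.

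A fed site is one with a peak in all 3 fed libraries. The region held 15 of the 44909 fed sites of the genome, a density of 4.93 per 100 kb of the region, against 1.65 per 100 kb of the genome and 2.01 per 100 kb of chromosome 7. Of these 15, 13 were found in 1 or more starved libraries, where the share over all fed sites was 70.9%. A peak in all 3 starved libraries was found at 9 of the 15, against 49.3% of all fed sites, and 2 of the 15 had a peak in no starved library, against 29.1% of all. The other 7 sites were weaker sites of the fed livers, with 4 found in 1 fed library and 3 in a pair of them. None of those 7 had a starved peak, so every starved peak of the region fell on a fed site. Neither the share of starved peaks on fed sites nor the share of such weaker sites with a starved peak was counted over the genome. Every fed list was longer than every starved list. The 7 had mean percentile ranks by score (100 is the best) of 1.22 to 29.0 in fed lists. Of all fed sites ranked 0 to 10, 10 to 20 and 20 to 30, only 4.42%, 8.43% and 12.3% had a starved peak. Those shares are of sites called in all 3 fed libraries, which the 7 are not, so they are no background for the 0 of 7. The nearest sites left out lay 34.6 kb before the window (0 starved and 3 fed libraries) and 19.4 kb beyond it (3 starved and 3 fed libraries).

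**Figure D1:**
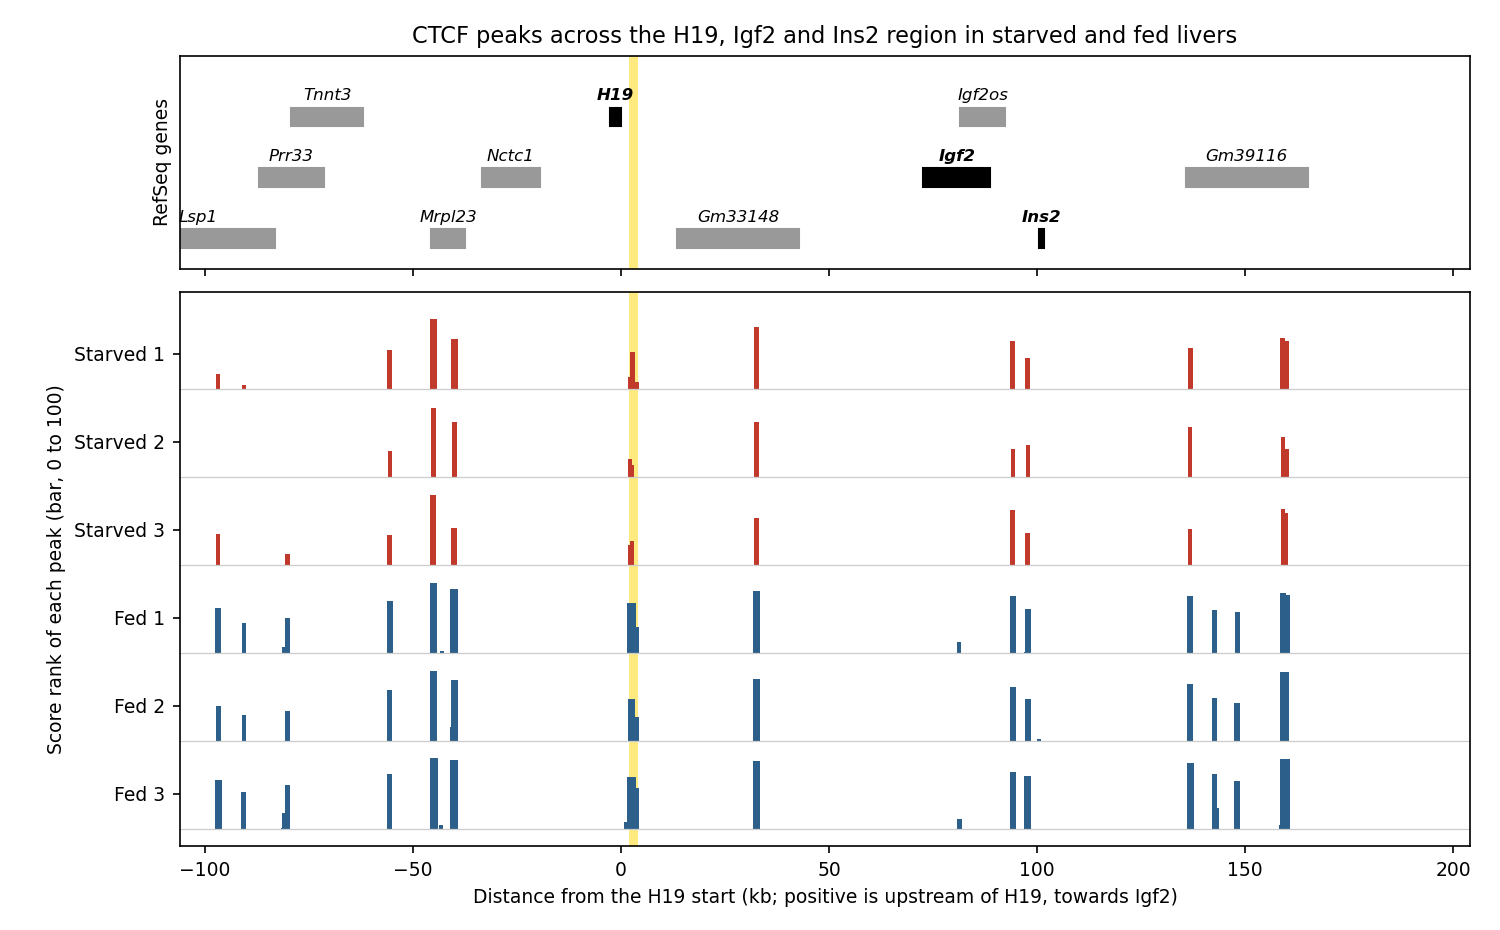
Peaks of the 3 starved libraries (red, above) and 3 fed libraries (blue, below) against distance from the H19 start in kb, with RefSeq genes on top. Bar height is a peak's score rank within its own list from 0 to 100, bars are widened slightly for display, and the yellow band is the imprinting control region; starved libraries have 9 to 12 sites and fed libraries 16 to 21.

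At the imprinting control region, taken as the stretch 2 to 4 kb upstream of the H19 start, CTCF peaks were found in all 6 livers' libraries, and they were narrower after starvation. The site nearer to H19 (chromosome 7, 142580013 to 142581244, outside any annotated gene) began 1867 bp upstream of the gene. Each fed library had 1 broad peak there, of 1203, 893 and 1210 bp in fed 1, 2 and 3. Each starved library had a pair of short peaks inside the same stretch. The peak nearer to H19 measured 266, 232 and 225 bp in starved 1, 2 and 3, with its midpoint at 2.16, 2.18 and 2.18 kb from the H19 start. The farther peak measured 450, 144 and 269 bp in starved 1, 2 and 3, with its midpoint at 2.66, 2.63 and 2.58 kb. The midpoints of the fed peaks, at 2.50, 2.45 and 2.47 kb in fed 1, 2 and 3, lay between those of the starved pairs.

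Within the pairs, the better-scored peak was not the same in all starved livers. In the percentile rank by score within a library's list, where 100 is the best, the nearer peak stood at 17.1 and the farther at 52.4 in starved 1. In starved 3 they stood at 27.7 and 34.0, and in starved 2 the order was the other way, at 25.5 and 16.5. A single peak in every fed list and 2 or more peaks in every starved list was found at 1 of the 9 region sites called in all 6 libraries, which was this one, and at 0.624% of the 22131 such sites of the genome. The pattern was chosen after the peaks were seen, and mean peak width over the whole lists also differed, at 324 ± 64.1 bp in starved and 462 ± 15.8 bp in fed livers (SD, n = 3 each). The part of peak width in the pattern was not tested.

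The site of the control region farther from H19 (142581610 to 142582143) was a fed site found in only 1 starved library. Its rank was 9.51 in starved 1, with no peak in starved 2 and starved 3, against 36.7, 33.5 and 57.8 in fed 1, 2 and 3. Its starved peak measured 266 bp with a midpoint at 3.69 kb from the H19 start, and its fed peaks measured 435, 452 and 507 bp with midpoints at 3.76, 3.77 and 3.72 kb. Fed sites with a mean fed rank of 40 to 50 had a peak in 0.663 starved libraries on average over the genome, and this one, at a mean of 42.7, had it in 1. A further weak peak (142579174 to 142579374), between the control region and H19, was found in fed 3 alone at a rank of 10.2.

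**Figure D2:**
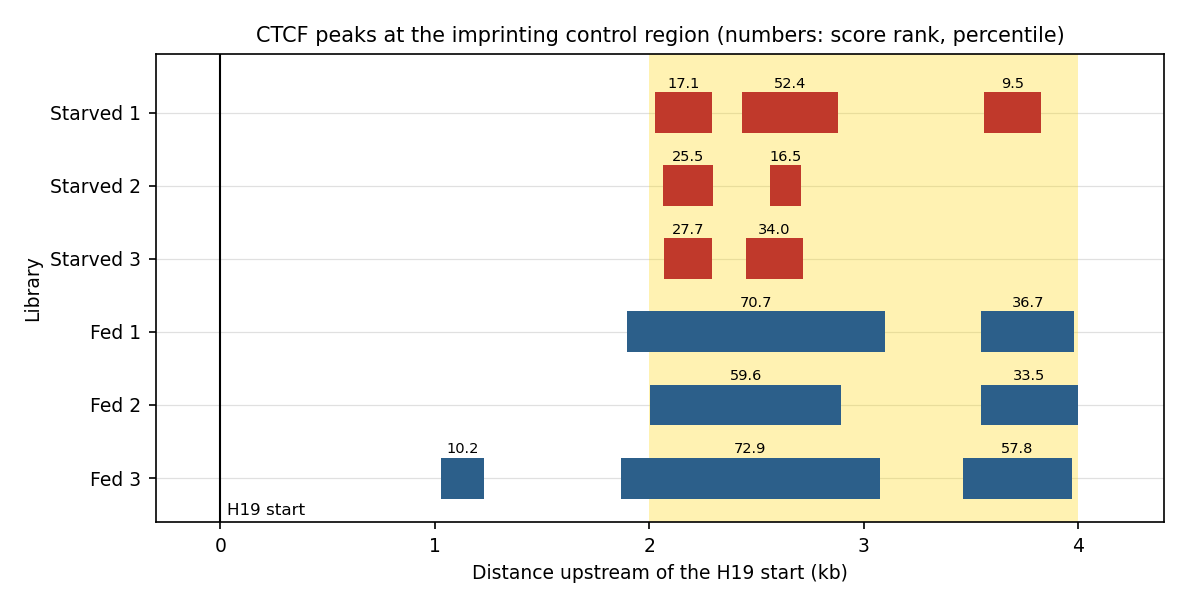
Extent of every CTCF peak between the H19 start (0 kb) and 4 kb upstream of it in the 3 starved libraries (red, above) and 3 fed libraries (blue, below); numbers are score ranks (percentile) and the yellow band marks 2 to 4 kb. Each starved library shows a pair of short peaks where each fed library has 1 broad peak, and the peak near 3.7 kb is missing from starved 2 and starved 3.

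In score rank the nearer site of the control region stood at 52.4, 25.5 and 34.0 in starved 1, 2 and 3, by its better peak, against 70.7, 59.6 and 72.9 in fed 1, 2 and 3. The means were 37.3 ± 13.7 in starved and 67.7 ± 7.09 in fed lists (SD, n = 3 each), and the groups did not overlap (difference -30.4, exact permutation p = 0.1), as was so for 66.8% of the 22131 sites of the genome called in all 6 libraries. The fed lists were longer, so percentile ranks in whole lists do not refer to the same number of peaks. A rank difference between whole lists therefore cannot by itself show a change in binding, and its cause was not tested. In lists of equal length the site stood at 38.8, 25.5 and 17.6 in starved 1, 2 and 3, against 31.2, 17.3 and 15.0 in fed 1, 2 and 3, and the groups overlapped (difference 6.14, exact permutation p = 0.5). Among the sites of the region it held place 8, 9 and 10 by score in starved 1, 2 and 3, and place 8, 9 and 10 in fed 1, 2 and 3. That was the last of the 9 sites of starved 2 and the last but one of the 11 sites of starved 3, while fed libraries had 7 to 11 sites below it.

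Igf2 (142650768 to 142666816) had no fed site inside it or within 5 kb. A weak site inside the gene (142659215 to 142659679) had no starved peak in starved 1, 2 or 3, and stood at ranks 15.7 in fed 1 and 14.5 in fed 3, with none in fed 2. It ended 1 bp before the annotated body of Igf2os, the transcript that runs over Igf2 in the opposite sense. The nearest fed site (142671924 to 142672753) lay 5108 bp beyond Igf2 and 1568 bp from Igf2os. All 6 libraries had it, at ranks 68.6, 39.6 and 78.0 in starved 1, 2 and 3, against 81.2, 76.9 and 80.7 in fed 1, 2 and 3. Starved 3 stood above fed 2, so the groups overlapped (exact permutation p = 0.2), as they also did in lists of equal length (57.3 ± 16.6 in starved and 49.4 ± 8.66 in fed lists, SD, n = 3 each, exact permutation p = 0.4).

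The promoters of Igf2 are shown because words of the CTCF core motif occur in them where no library had a peak. The words GGNGGCAG and GGGGGCGC were searched on both strands in the 300 bases around each RefSeq transcript start (GRCm38.p6, 250 before and 50 after). GGNGGCAG was found in 12.6% and GGGGGCGC in 3.34% of 32851 promoters, and the second word was added after sequences had been seen. At promoters on a site of all 6 libraries the shares were 18.97% and 13.6% of 2594, and at promoters on no site 10.4% and 1.42% of 23986. Of the 4 Igf2 promoters in the table, that at 142658755 to 142659054 held both words, which did not overlap, and ended 161 bp before the weak site inside the gene. The promoter at 142657447 to 142657746 held GGGGGCGC. No peak of any library covered a match in either of them. The lines give the 250 bases before each start, 5′ to 3′ on the minus strand, with the words or their complements in capitals.
Igf2, chr7:142658805-142659054: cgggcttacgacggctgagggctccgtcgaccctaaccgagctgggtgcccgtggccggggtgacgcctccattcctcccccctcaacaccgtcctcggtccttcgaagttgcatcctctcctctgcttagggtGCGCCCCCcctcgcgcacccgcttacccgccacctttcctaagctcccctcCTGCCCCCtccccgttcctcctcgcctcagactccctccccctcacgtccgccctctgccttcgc
Igf2, chr7:142657497-142657746: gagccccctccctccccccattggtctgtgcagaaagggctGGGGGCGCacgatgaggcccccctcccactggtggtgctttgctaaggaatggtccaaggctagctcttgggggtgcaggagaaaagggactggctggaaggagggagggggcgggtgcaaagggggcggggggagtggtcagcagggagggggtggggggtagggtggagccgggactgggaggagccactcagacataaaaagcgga

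Ins2 (142678656 to 142679726) had a fed site 2438 bp from the gene (142675269 to 142676218) that was called in all 6 libraries. Its ranks were 43.4, 45.1 and 44.6 in starved 1, 2 and 3, against 61.7, 59.2 and 75.2 in fed 1, 2 and 3. In lists of equal length the order of the groups turned, at 27.2, 45.1 and 30.9 in starved 1, 2 and 3, against 10.2, 16.4 and 22.4 in fed 1, 2 and 3. Every starved value then lay above every fed value, with means of 34.4 ± 9.46 in starved and 16.3 ± 6.13 in fed lists (SD, n = 3 each; difference 18.1, exact permutation p = 0.1). It was the 1 site of the region's 9 called in all 6 lists of equal length with that order, and 7.26% of 19291 such sites of the genome had it. At Ins2 itself a single weak peak (142678557 to 142678708) over the edge of the gene was found in fed 2 alone, at a rank of 2.61.

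Between H19 and Igf2 a strong site (142610290 to 142611180) stood apart from the control region, inside the uncharacterised noncoding gene Gm33148. It lay 32.1 kb upstream of H19 and was present in all 6 lists, at ranks 87.7, 78.5 and 65.8 in starved 1, 2 and 3, against 87.6, 87.5 and 95.6 in fed 1, 2 and 3. The groups overlapped in the whole lists (exact permutation p = 0.3) and in lists of equal length (73.4 ± 14.1 in starved and 77.2 ± 8.003 in fed lists, SD, n = 3 each, exact permutation p = 0.8). By score it held place 2, 2 and 4 among the sites of the region in starved 1, 2 and 3, and place 3, 3 and 4 in fed 1, 2 and 3.

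The sequence under this site is shown because it holds GGGGGCGC close to the middle of every peak. A pair of annotated starts of Gm33148 fall within the site. The promoter of one (142610569 to 142610868) holds the word at 142610759 to 142610766, and that of the other (142610909 to 142611208) holds neither word. Peaks of all 6 libraries covered the match, with midpoints 4 to 85 bp away. A match is a description of the letters and not a tested binding site. The promoter of Mrpl23 (142532782 to 142533081), which falls within the strongest site of the region, is set beside it and held neither word in this window. The lines give the 250 bases before each start, 5′ to 3′ on the plus strand, with the word in capitals.
Gm33148, chr7:142610569-142610818: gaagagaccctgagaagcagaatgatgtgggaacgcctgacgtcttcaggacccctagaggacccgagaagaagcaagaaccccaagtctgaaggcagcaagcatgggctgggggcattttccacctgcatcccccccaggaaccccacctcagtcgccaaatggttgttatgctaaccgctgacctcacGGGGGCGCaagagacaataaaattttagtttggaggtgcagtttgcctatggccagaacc
Mrpl23, chr7:142532782-142533031: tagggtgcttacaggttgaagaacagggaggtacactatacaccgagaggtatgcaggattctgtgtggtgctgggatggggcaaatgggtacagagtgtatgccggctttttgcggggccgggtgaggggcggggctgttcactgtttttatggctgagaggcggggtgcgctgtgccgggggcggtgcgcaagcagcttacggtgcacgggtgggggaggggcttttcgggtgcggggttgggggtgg

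On the other side of H19 the strongest site of the region in every library (142532570 to 142533660) covered an annotated start of Mrpl23, which encodes a protein of the large mitochondrial ribosomal subunit. It stood at ranks 99.9, 98.3 and 98.7 in starved 1, 2 and 3, against 99.1, 98.9 and 99.9 in fed 1, 2 and 3, and the groups overlapped (exact permutation p = 0.6). A further site inside Mrpl23 (142537360 to 142538516) stood at 71.0, 77.6 and 51.7 in starved 1, 2 and 3, against 91.0, 85.6 and 98.0 in fed 1, 2 and 3. Starved ranks lay below fed ranks there in the whole lists (exact permutation p = 0.1), as at 66.8% of the 22131 sites of the genome called in all 6 libraries. The groups overlapped in lists of equal length (exact permutation p = 0.2). A weak site between them (142534814 to 142535239) was found in fed 1 and fed 3 alone, at 2.20 and 5.05.

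From Mrpl23 away from H19, 1 of 4 fed sites was called in all 3 starved libraries, against 49.3% of all fed sites. Those not called in all 3 had mean fed ranks of 60.9, 43.4 and 51.5. Over the genome, 66.9%, 2.15% and 17.9% of fed sites ranked 60 to 70, 40 to 50 and 50 to 60 were called in all 3. An intergenic site (142522180 to 142522819), 5967 bp from Tnnt3, the fast skeletal muscle troponin T gene, was present in all 6 lists at ranks of 44.9 ± 9.24 in starved and 74.4 ± 3.31 in fed lists (SD, n = 3 each; exact permutation p = 0.1). In lists of equal length the means were 35.9 ± 7.30 in starved and 37.1 ± 5.46 in fed lists (SD, n = 3 each; exact permutation p = 0.8). Lsp1, an actin-binding protein of white blood cells, had a site (142481039 to 142481759) with a peak at 21.2 in starved 1 and 43.1 in starved 3 but none in starved 2, against 63.6, 49.5 and 69.4 in fed 1, 2 and 3. A second site in Lsp1 (142487303 to 142487625) stood at 5.63 in starved 1 alone, against 41.8, 36.5 and 52.0 in fed 1, 2 and 3. A site in the noncoding gene Prr33 (142497863 to 142498175), 596 bp from Tnnt3, stood at 15.0 in starved 3 alone, against 49.7, 42.1 and 62.6 in fed 1, 2 and 3. Of 2 weaker sites in Prr33, one (142496722 to 142496885) was found in fed 3 alone at 1.22, and the other (142496959 to 142497212) in fed 1 and fed 3 at 7.49 and 21.7.

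Beyond Ins2, 5 sites lay inside the uncharacterised noncoding gene Gm39116 (142713797 to 142743246), and 4 of them were fed sites. Its outermost sites were called in all 6 libraries. That nearer to Ins2 (142714442 to 142715355) stood at 58.1, 71.1 and 51.0 in starved 1, 2 and 3, against 79.9, 81.2 and 92.8 in fed 1, 2 and 3. The farther one (142736701 to 142738412), the widest site of the region at 1712 bp, stood at 72.3, 56.1 and 79.5 in starved 1, 2 and 3, against 84.7, 96.9 and 98.4 in fed 1, 2 and 3. At both, starved ranks lay below fed ranks in the whole lists (exact permutation p = 0.1 each), as at 66.8% of the 22131 sites of the genome called in all 6 libraries. The groups overlapped in lists of equal length (exact permutation p = 0.4 and 0.3).

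The inner sites of Gm39116 were the only fed sites of the region with no starved peak. One of them (142720478 to 142721015) stood at 60.4, 60.6 and 77.5 in fed 1, 2 and 3, and the other (142725824 to 142726524) at 58.1, 53.4 and 67.8. Their means in fed lists were 66.2 ± 9.80 and 59.8 ± 7.36 (SD, n = 3). The site next to Ins2, called in all 3 starved libraries, had a mean of 65.4 in fed lists. Of the 4 fed sites of the region with a mean fed rank of 60 to 70, 1 had no starved peak, against 1.37% of the 5616 such sites of the genome. Of the 2 fed sites of the region with a mean fed rank of 50 to 60, 1 had no starved peak, against 18.1% of the 5466 such sites of the genome. In lists of equal length 10 sites of the region were called in all 3 fed lists, and the first of the inner Gm39116 sites was the 1 of them without a starved peak, against 1.2% of 21707 sites, with 7.16, 19.2 and 29.4 as its ranks in fed 1, 2 and 3. A weak peak beside that site (142721150 to 142721330) was found in fed 3 alone at 29.0. The inner sites were singled out because they had no starved peak, and each region count set against a share here is 1 site. The first inner site gives both the 60 to 70 and the equal-length count. These counts therefore do not test a loss.

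**Figure D3:**
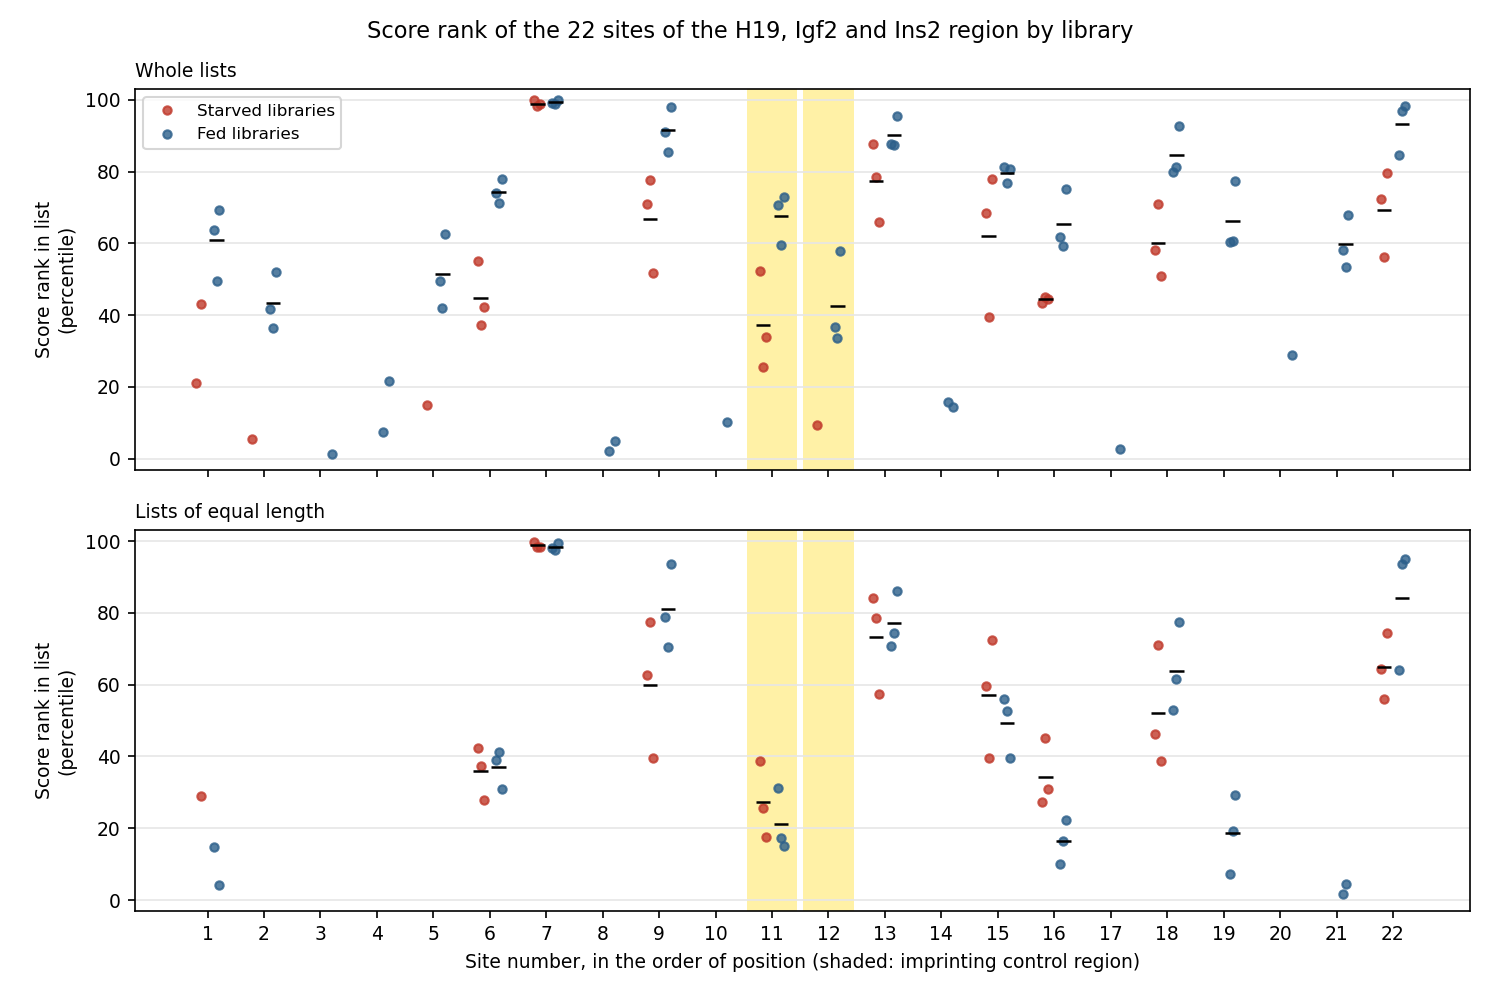
Score rank (percentile within a list) of the 22 sites, numbered by position, in the 3 starved libraries (red, left of each pair) and the 3 fed libraries (blue, right); black lines are means where all 3 libraries of a state have the site, and the yellow bands are the control region. In whole lists (upper panel) 6 of the 9 sites called in all 6 libraries have every starved rank below every fed rank, as have 66.8% of such sites of the genome; in lists of equal length (lower panel) 0 of 9 have, against 7.76%.

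Over the 9 sites called in all 6 libraries, every starved rank lay below every fed rank at 6 in the whole lists, and at the other 3 the groups overlapped. Over the genome 66.8% of the 22131 sites called in all 6 libraries had every starved rank below every fed rank in the whole lists, so the region's count was near the background. In lists of equal length every starved rank lay below every fed rank at 0 of 9, against 7.76% of 19291 sites of the genome, and at 8 of 9 the groups overlapped. The Mrpl23 promoter site was first by score in each library. Covered length differed at every one of these sites. At 9 of 9 sites every starved library covered fewer bases than every fed library, as did 90.4% of the 22131 sites of the genome called in all 6 libraries. The median of the starved to fed ratio of covered length was 52.0% over the 9 sites and 50.3% over the genome, from 36.6% at the site next to Ins2 to 59.6% at the Mrpl23 promoter. The nearer site of the control region covered 529 ± 173 bp in starved and 1102 ± 181 bp in fed libraries (SD, n = 3 each), a ratio of 48.0%.

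The fed sites of the region were set beside the genome by their mean rank in the fed lists. All 7 fed sites of the region with a mean fed rank above 70 were called in all 3 starved libraries. Over the genome, sites with a fed rank of 70 to 80 had a peak in 2.97 starved libraries on average, and those from 90 to 100 in 3.00. Of the 4 region sites between 60 and 70, the nearer control region site and that next to Ins2 had it in 3, the first Lsp1 site in 2 and the inner Gm39116 site in 0, a mean of 2 against 2.58 over the genome. Of the 2 region sites between 50 and 60, the Prr33 site had it in 1 starved library and the other inner Gm39116 site in 0, a mean of 0.5 against 1.55 over the genome. Both region sites between 40 and 50, the farther control region site and the second Lsp1 site, had it in 1, a mean of 1 against 0.663 over the genome, and both rested on starved 1. Without starved 1, 4 of the 15 lacked a starved peak. The median fed rank of the 15 was 67.7, against 61.0 over all fed sites.

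**Figure D4:**
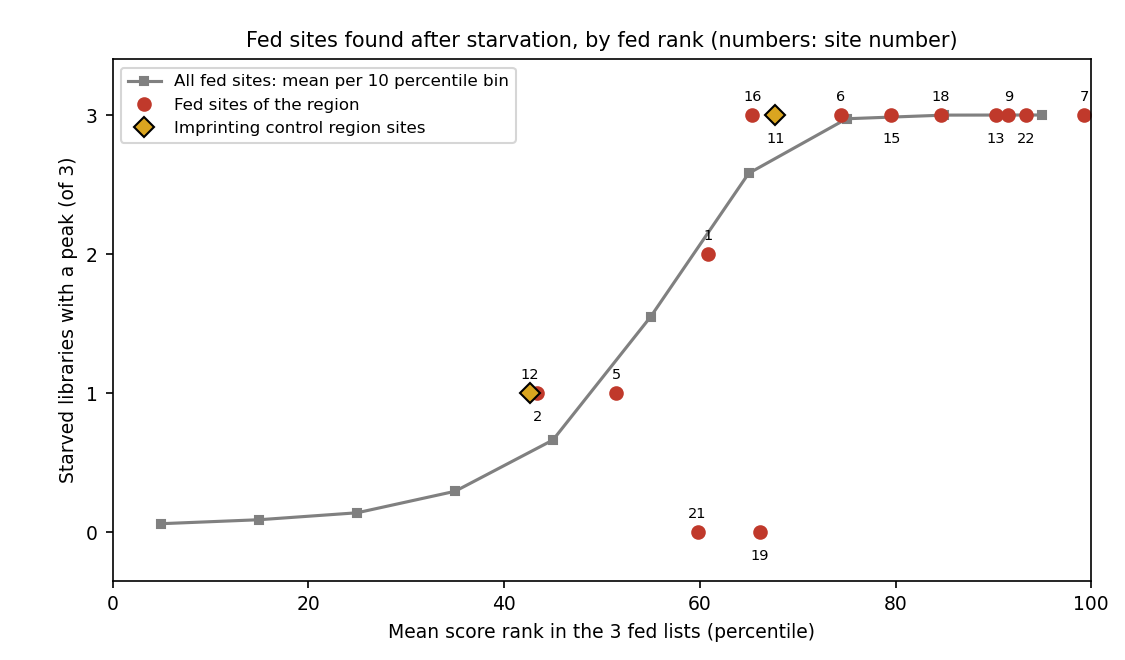
Number of starved libraries (of 3) with a peak against the mean score rank in the 3 fed lists (percentile) for the 15 fed sites of the region (red; gold diamonds for the control region), numbered by position. The grey line is the mean over all fed sites of the genome in steps of 10; all 7 region sites above a rank of 70 are at 3, and the inner Gm39116 sites 19 and 21 are at 0.

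Fed sites were unevenly spread along the region. The median gap between neighbours was 9.96 kb, against 18.9 kb over the genome. The longest gap, of 60.7 kb, ran from the Gm33148 site to the one beyond Igf2 and so spanned the whole of Igf2, and 20.3% of gaps of the genome were longer. The next, of 41.5 kb, separated Mrpl23 from the control region and held H19 itself and Nctc1, a noncoding gene with 0 sites inside it or within 5 kb. The third, of 38.2 kb, ran from the site next to Ins2 to the first site of Gm39116 and held Ins2. Of the gaps of the genome 29.0% were longer than that of 41.5 kb and 31.1% longer than that of 38.2 kb. The bodies of H19, Igf2 and Ins2 thus all lay in the 3 longest gaps between fed sites of the region. Whether gene bodies fall in such gaps more often than their length implies was not tested.

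Fed sites near other imprinted genes and near genes of the insulin and IGF system were counted in the same way, within 5 kb of each gene. Of 28 genes of other imprinting control regions 22 had a fed site. Of their 50 fed sites 35 were found in 1 or more starved libraries, 24 in all 3 and 15 in none. Of 14 neighbours further along distal chromosome 7, 12 had a fed site, and of their 29 fed sites 22 were found in 1 or more starved libraries, 18 in all 3 and 7 in none. Of 18 ligands, receptors, adaptors and binding proteins of the insulin and IGF system 17 had a fed site, and of their 60 fed sites 34 were found in 1 or more starved libraries, 27 in all 3 and 26 in none. The shares with a starved peak were 70%, 75.9% and 56.7% in the order of these lists, against 70.9% of all fed sites, and the median fed ranks were 60.6, 83.5 and 51.5. At equal list length all fed sites left had a starved peak, at 24 of 24, 19 of 19 and 24 of 24 sites in the same order, against 98.8% of 21707 sites of the genome.

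The genes named next were picked by the fed rank of their best site or by a fed site with no starved peak. High ranks among them were therefore fixed by the choice. Mest, Snrpn, Slc38a4, Zim1 and Nnat of the imprinted list had best fed ranks of 62.8, 57.1, 45.0, 43.7 and 18.4. The nearer control region site of H19 stood at 67.7 in fed lists. Ranks are means over the 3 lists of each state, and each best site given below was called in all 6 libraries. Among imprinted genes, Grb10, an adaptor that restrains the insulin receptor, had a site at 93.2 in starved and 94.8 in fed lists. Airn, the noncoding RNA that silences Igf2r, had one at 81.9 in starved and 92.0 in fed lists. Mcts2 had one at 89.2 in starved and 95.4 in fed lists, Inpp5f at 88.3 in starved and 94.6 in fed lists, and Commd1 at 91.1 in starved and 89.6 in fed lists. Igf2r itself, the receptor that clears IGF2, had its best site at 24.8 in starved and 62.2 in fed lists. Of its 3 fed sites 1 had no starved peak, as had 2 of 4 at Airn and 1 of 2 at Mcts2. At Grb10, Inpp5f and Commd1 it was 0 of 3, 0 of 1 and 0 of 7, and the share over all fed sites was 29.1%.

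Along distal chromosome 7, Osbpl5, an oxysterol-binding protein, had its best site at 99.7 in starved and 98.7 in fed lists. Cdkn1c, a maternally expressed inhibitor of the cell cycle, had it at 90.0 in starved and 97.8 in fed lists, and Th, the tyrosine hydroxylase gene, at 93.6 in starved and 98.5 in fed lists. Slc22a18 had it at 87.0 in starved and 94.4 in fed lists, and Dhcr7, the last enzyme of cholesterol synthesis, at 86.2 in starved and 90.4 in fed lists. In the insulin and IGF system, Ide, which degrades insulin, had it at 96.8 in starved and 96.9 in fed lists, and Irs1, an adaptor of both receptors, at 96.0 in starved and 96.1 in fed lists. Igf1, the growth factor that adult liver secretes, had it at 90.2 in starved and 94.9 in fed lists. Igfbp3 and Igfbp5, carriers of the IGFs, had it at 88.0 and 92.9 in starved lists and at 94.1 and 94.4 in fed lists. Of the fed sites of Igf1, 2 of 3 had no starved peak, against 29.1% of all fed sites. Over the whole insulin and IGF list it was 26 of 60, from 0 of 1 at Igf2bp1 and at Igfbp6 to 4 of 5 at Igfbp4. Insr had 5 of 8 and Igf1r 3 of 6. The counts were 1 of 2 at Ide, 1 of 4 at Irs1, 2 of 6 at Igfbp5, 0 of 3 at Igfbp3 and 2 of 8 at Osbpl5. They were 0 of 2 at Cdkn1c, 0 of 1 at Th, 0 of 3 at Slc22a18 and 0 of 1 at Dhcr7.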

How the data were processed

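CTCF ChIP-seq was run on whole, snap-frozen livers, per the labels' protocols, and groups were taken from the sample titles. The authors deposited 1 peak list per library, with a score per peak in column 5 with no statement of what it measures; the score served to rank or filter peaks. Per the submitters' processing notes the build was mm10 and the tools were MACS2, HOMER, BWA 0.7.5a, bedtools 2.17, SAMtools and FastQC, with no role given. The sources used here give neither read depth nor the use of the inputs as control, and the number of called peaks may depend on both.

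Peaks of the 6 lists overlapping by 1 bp or more were merged into sites. A site's rank in a library is the percentile of its best-scored peak in that library's list. Differences between states are starved minus fed and were tested by two-sided exact permutation over 20 labellings. Shares over all fed sites give the background. Gene positions and promoters came from RefSeq (GRCm38.p6, the assembly of mm10), and promoters of 6 of the 14 genes of the window matched by symbol. The members and gene lists were chosen with earlier results of these data known. Genes named were H19, Igf2 and Ins2, genes of the window with a site inside or within 5 kb, and at most 6 per list by best fed rank or by a fed site with no starved peak; some genes that this rule names are not described. Alternatives were equal list length (23926 peaks), a score limit of 30.4 (the median over all lists), trimming of peaks to 200 bp, merging across gaps of up to 500 bp, flanks of 50 and 200 kb, windows of 1 and 20 kb, fed sites from at least 2 of 3 libraries, ranks within chromosome 7, the leaving out of each library and a replicate block. Merging and counting were tested on simulated data. No pair of lists shared more than 4 identical peaks. Computations ran in Python 3.11.15 (scipy 1.17.1, numpy 2.4.6, pandas 2.3.3), with figures from matplotlib 3.10.9.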

Additional observations from a re-analysis of the deposited data

How the results depend on the processing

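Of 101 alternative values 90 were labelled the same, 9 moved and 2 reversed. A count was labelled moved when its ratio to the main count passed a set limit, and a difference reversed when its sign changed. The smallest possible exact permutation p was 0.1, so no difference could change side of a significance threshold, and the labels do not measure that. In lists of equal length the starved minus fed difference in rank at the nearer control region site was 6.14 (exact permutation p = 0.5), against -30.4 in the whole lists, and that in peaks of the region per 10000 was -0.279 (exact permutation p = 0.7), against 1.18. The difference in sites per library was -2 there (exact permutation p = 0.1), and all fed sites near listed genes had a starved peak (24 of 24, 19 of 19 and 24 of 24). The equal length itself removes the weak peaks of the longer lists. The stricter score limit gave no rank difference at the control region, since starved 2 and starved 3 had no peak left there. Under that limit 8 of 12 fed sites were found in 1 or more starved libraries, 4 in all 3 and 4 in none. With a flank of 50 kb 8 of 10 were found in 1 or more starved libraries, and with 200 kb 4 of 20 had none. Fed sites with no starved peak numbered 1 of 10 in lists of equal length, against 1.2% of 21707 sites of the genome. They numbered 5 of 18 when 2 fed libraries sufficed. The cause was not tested for the limits on score, flank and fed libraries. For the flanks the shares over all fed sites stay at 70.9% with a starved peak and 29.1% with none. Under the score limit and with 2 fed libraries the shares over the genome were not counted. Those counts therefore have no background beside them.

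Leaving out each library in turn gave differences of -8.83 to -6.83 in sites per library, 0.985 to 1.30 in peaks per 10000 and -38.0 to -24.5 in control region rank. It gave 11 to 13 fed sites found in 1 or more starved libraries, 9 to 10 found in every starved library and 2 to 5 with none (4 of 15 without starved 1, 5 of 18 without fed 2). Genes of other control regions had a starved peak at 31 to 36 of 50 to 58 fed sites. Distal chromosome 7 neighbours had it at 22 of 29 to 32, and the insulin and IGF system at 31 to 34 of 60 to 72. Without fed 2 the counts were 36 of 58, 22 of 31 and 34 of 72 in this order. Shares over the genome were not counted with a library left out. Over 22131 sites the deviations of same-numbered libraries correlated at -0.0105, 0.0944 and 0.0630 for numbers 1, 2 and 3. Differently numbered libraries correlated at -0.128 to 0.0912. With 3 libraries per state these values cannot tell whether the numbers pair the libraries. With a replicate block the differences were -7.67 sites, 1.18 peaks per 10000 and -30.4 in rank, each with an exact sign-flip permutation p = 0.25, the smallest that 3 pairs allow. Peaks below the lowest score of each list, and binding on single parental chromosomes, cannot be seen in these lists.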
